A study of Mus musculus with 9 samples.

Results

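Luminal epithelium of the mouse uterus with added progesterone receptor isoform A was compared with control luminal epithelium on pregnancy day 4, over all genes that could be measured in these libraries. The groups were ePRAoe (genotype Wnt7acre/+PgrALsL/+) and the control Wnt7acre, with 3 libraries each, 6 of the 9 libraries of the series, and 11637 of the 15158 genes in the table reached the level needed for testing. Females of both groups carried the Wnt7acre allele, had been kept with normal chow to 8 weeks of age, were mated with stud males and were dissected on day 4, and the epithelium was taken by laser capture. The cre line takes its name from Wnt7a, a gene expressed in uterine epithelium, and the PgrALsL allele was present in ePRAoe only, so both groups shared the cre and the pregnancy and differed by the receptor allele. The bioreplicates are numbered in the labels, but no animal is named, and the p-values therefore rest on the spread of the libraries alone. Values are FPKM, the fragments of a gene per kilobase of its length, corrected for library size. Each group had 1 library in each of 3 sequencing runs. Run 1 held Wnt7acre replicate 3 and ePRAoe replicate 2, run 2 held Wnt7acre replicate 2 and ePRAoe replicate 3, and run 3 held replicate 1 of both. The runs are named in the labels of the libraries, which say nothing of when tissue was captured or RNA was extracted.

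The progesterone receptor is a transcription factor that binds its hormone and then DNA, and its isoforms A and B are made from the same gene, Pgr, with B carrying an extra stretch at its start. In early mouse pregnancy estrogen first drives the luminal epithelium to divide and secrete, and progesterone then stops this and makes the surface receptive to the embryo. The receptor acts in the epithelium partly through genes such as Ihh, Gata2 and Sox17, whose products alter both the epithelium and the stroma under it, and it is normally lost from the luminal epithelium around the time of attachment.

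The libraries resembled each other within groups. Across the tested genes the correlation of log2(FPKM + 1) was 0.924 to 0.963 between libraries of the same group, and between the groups it was 0.870, 0.854 and 0.916 within runs 1, 2 and 3. The number of genes at 1 FPKM or more was 11074 to 11694, and the depth of the libraries is unknown. Epithelial markers were present in every library: the summed FPKM of 15 luminal epithelium markers was 1630 to 1940 in Wnt7acre and 1440 to 2030 in ePRAoe. Single members did change: of the 15, all tested, 4 rose and 2 fell (0 and 0 when any 1 library was left out). Of 17 tested stroma markers 14 rose (7 when any 1 library was left out) and 0 fell, and the summed FPKM of the stroma list was 94.8 to 124 in Wnt7acre and 232 to 409 in ePRAoe. Of 13 tested immune markers 0 rose and 4 fell (2 when any 1 library was left out). The immune sums were 416, 238 and 200 FPKM in Wnt7acre replicates 1, 2 and 3 and 134 to 178 in ePRAoe. Among all tested genes 7.74% rose and 9.63% fell. Sums for the 9 endothelium markers were 13.1 to 19.8 and 14.8 to 31.9 FPKM, with Cldn5, Tie1 and Vwf under 1 FPKM in all 6 libraries, and those for the 7 smooth muscle markers were 11.7 to 21.5 and 16.8 to 31.5, with Cnn1 and Myh11 under 1. Only 6 of the endothelium markers and 4 of the smooth muscle markers were tested, and none of these passed the test. The gland list summed to 77.9 to 288 FPKM in Wnt7acre and 296 to 568 in ePRAoe, with 2 members that rose and 1 that fell of 5 tested (1 and 1 when any 1 library was left out), and Lif and Ttr were under 1 FPKM. Much of that sum was Calb1, a calcium-binding protein, at 245, 30.0 and 188 FPKM in Wnt7acre and 314, 558 and 292 in ePRAoe, while Spink1 of the same list fell from 24.1, 41.2 and 14.8 to 2.7, 0.18 and 0. In the multiciliated list Foxj1, Ccdc39 and Tekt1 were under 1 FPKM, and the sums were 1.77 to 3.79 FPKM in Wnt7acre and 4.53 to 13.3 in ePRAoe. Dnah5, the 1 member of that list that was tested, rose from 2.23, 0.375 and 0.292 to 6.68, 12.2 and 3.51 FPKM. It also rose when any 1 library was left out. The part of these other cells in the results below was not tested, and in bulk samples fewer cells of a type and less RNA per cell cannot be told apart. Calb1 (adjusted p = 0.131) lost the call without a library of run 1. Calb1 (adjusted p = 0.117) lost the call without a library of run 2. Calb1 (adjusted p = 0.0824) did not pass in the fit of the 6 libraries alone.

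**Figure D1:**
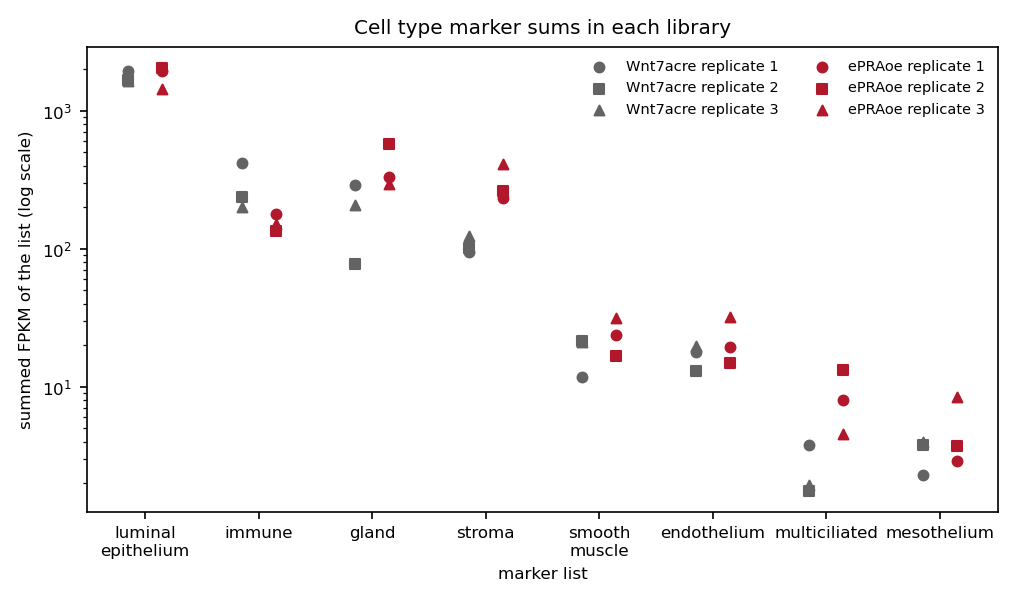
Summed FPKM of the genes in each cell type marker list (log scale) for the 3 Wnt7acre libraries (grey) and the 3 ePRAoe libraries (red), with a symbol for each replicate. The luminal epithelium sums overlapped between the groups, the stroma sums were higher in all 3 ePRAoe libraries (232 to 409 against 94.8 to 124) and the immune sums were lower in all 3 (134 to 178 against 200 to 416).

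Pgr (chromosome 9, 8899833 to 8968611, forward strand of mm10), the gene of the receptor itself, was read at 17.4, 3.82 and 6.62 FPKM in Wnt7acre replicates 1, 2 and 3 and at 41.7, 49.5 and 42.8 in ePRAoe, the order of replicates used throughout. All ePRAoe libraries stood above all controls, and the control of run 3 was the highest of the controls. On log2(FPKM + 1), the scale of every fold change here, Pgr rose by 2.38 (SE 0.33, limma with Benjamini-Hochberg adjustment, adjusted p = 0.00448). Within runs 1, 2 and 3 the log2 difference was 2.73, 3.18 and 1.22. For later genes the first value in parentheses after the levels is this log2 fold change, followed by its SE and the adjusted p of the same limma fit. Without any 1 of the libraries the log2 fold change of Pgr was 1.97 to 2.96, with an adjusted p of at most 0.0361. The exact two-sided sign-flip test over the 3 runs gave p = 0.25 and the exact permutation test of 3 libraries against 3 gave p = 0.1, each the smallest that so few samples allow. The FPKM of Pgr sums all transcripts of the gene, so isoforms A and B cannot be told apart in it. Wnt7a, which gives the cre line its name, fell from 66.1, 63.4 and 40.9 FPKM to 36.6, 10.1 and 15.7 (log2 fold change -1.57, SE 0.43, adjusted p = 0.0432), with no overlap of the groups. Wnt7a (adjusted p = 0.189) lost the call without a library of run 1. Wnt7a (adjusted p = 0.185) lost the call without a library of run 2.

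Between the groups 2022 of the 11637 genes (17.4%) passed the test at an adjusted p of 0.05, 901 of them higher in ePRAoe (7.74%) and 1121 lower (9.63%). The unadjusted p was under 0.05 for 3795 genes. Among all tested genes the median log2 fold change was -0.04. Of the genes that rose, 753 had every ePRAoe library above every control, and of those that fell 1005 had every ePRAoe library below, against 29.1% of all tested genes that were separated in either direction. All 3 within-run differences had the sign of the call for 899 of 901 genes that rose and for 1121 of 1121 that fell, while 45.5% of all tested genes had the same sign in all 3 runs. The calls were chosen by a paired test on these same values. Their separation and shared sign therefore follow largely from that choice and are no further evidence for them. The median size of a call was 1.05 log2 units upward (median SE 0.206) and 1.10 downward (median SE 0.211). By the fit 495 genes rose and 634 fell at least 2-fold, and 72 rose and 184 fell at least 4-fold. In every run separately, 162 of the genes that rose and 308 of those that fell moved at least 2-fold, and 13 and 79 moved at least 4-fold. Genes that rose held 3.84% to 7.62% of the summed FPKM of the controls and 12.5% to 15.9% of that of ePRAoe, and genes that fell held 13.0% to 20.1% and 5.30% to 7.63%.

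The count of calls depended on the libraries in the fit. The 3 other libraries of the series, from the isoform B genotype, were in the fit for the estimate of the spread and leave the ePRAoe estimate as it is from the 6 libraries. All 3 were in run 1, so the spread they add is that of another genotype within 1 run, not that between the pairs. The median SE over genes was 0.186 with 9 libraries and 0.229 with 6. Fitted without the isoform B libraries, 444 genes rose and 672 fell (9.59% of those tested), and 1087 of these 1116 were also called with 9 libraries. Without Wnt7acre replicate 1 the total was 2764 genes, without replicate 2 it was 862 and without replicate 3 it was 815; without ePRAoe replicates 1, 2 and 3 it was 2764, 814 and 869. Because the run term pairs the groups, leaving out either library of a run takes the whole pair of that run out of the comparison. The 2 fits for a run are therefore not separate checks. With any 1 library left out, 243 of the genes that rose and 359 of those that fell were still called. These 602 genes are called steady below, and most lists are given with their number of them. Where a named gene lost its call without a library of a run, the higher adjusted p for the libraries of that run is given. Run 3 differed from the others in size: the SD of the within-run differences over genes was 0.877, 0.900 and 0.688 in runs 1, 2 and 3. Genes that rose had median differences of 1.04, 1.27 and 0.793, and genes that fell -1.25, -1.22 and -0.809. The pair of run 3 thus had the smallest differences.

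**Figure D2:**
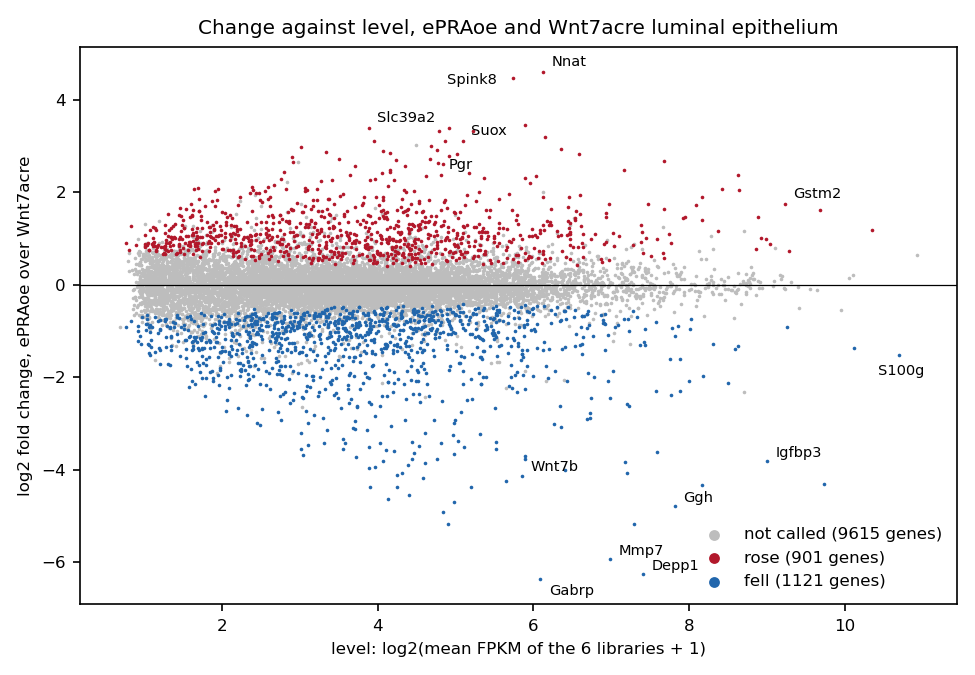
Log2 fold change of ePRAoe over Wnt7acre (vertical) against the level, log2 of the mean FPKM of the 6 libraries plus 1 (horizontal), for the 11637 tested genes, with 901 that rose in red, 1121 that fell in blue and 9615 not called in grey. Calls lie at all levels, and the fallen genes reach further from 0, down to -6.36 for Gabrp, than the risen genes, up to 4.60 for Nnat.

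Ranked by the change in the run where they changed least, the 12 leading genes among those that rose were Gldc, Spink8, Slc39a2, Suox, Grid2ip, Tsku, Cbr2, Adgrg7, Il16, Slc5a5, Fam198b and Arvcf. They hold enzymes, a protease inhibitor, transporters and signalling proteins, and all 12 rose more than 4-fold in every run on the log2(FPKM + 1) scale.

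Gldc (chromosome 19, 30098447 to 30175429, reverse strand), the glycine-cleaving enzyme of mitochondria, was at 3.31, 1.59 and 3.56 FPKM in the controls and 21.9, 26.5 and 15.6 in ePRAoe. The groups were far apart and the runs alike, with within-run differences of 2.60, 2.68 and 2.41 (log2 fold change 2.56, SE 0.28, adjusted p = 0.00224). Spink8 (chromosome 9, 109812280 to 109826633, forward strand), a Kazal-type serine protease inhibitor, stood at 4.93, 1.57 and 2.13 FPKM in the controls and 30.2, 187 and 89.7 in ePRAoe, so that its rise of 4.48 (SE 0.60) ranged over 5.91, 5.14 and 2.40 in the runs. Slc39a2 (chromosome 14, 51892889 to 51896745, forward strand), a zinc importer, went from 3.19, 0.554 and 1.43 to 20.5, 23.5 and 33.4 FPKM (3.39, SE 0.38, adjusted p = 0.00246). Grid2ip, a scaffold of glutamate receptors in neurons, was under 1 FPKM in all controls and at 6.46, 20.5 and 13.3 FPKM in ePRAoe (2.99, SE 0.28, adjusted p = 0.00185). Tsku, a secreted leucine-rich protein that binds growth factors, rose by 2.56, from 6.46, 1.93 and 6.76 to 45.5, 37.1 and 18.8 FPKM. Il16, a T cell attractant, rose from 3.29, 2.23 and 2.93 to 18.1, 39 and 28.6 FPKM (2.90, SE 0.24, adjusted p = 0.00138). It stood above every control in each ePRAoe library. Slc5a5, the iodide importer of the thyroid, rose by 2.73, and Arvcf, a catenin of cell junctions, by 2.21 with a small spread over runs (2.44, 2.04 and 2.15). Adgrg7, an adhesion receptor, rose from 7.8, 1.94 and 4.33 to 45.7, 23.2 and 18.4 FPKM (2.44, SE 0.44, adjusted p = 0.0107). Cbr2, a carbonyl reductase, was the most abundant of the 12, at 101, 36.8 and 35.7 FPKM in the controls and 499, 258 and 289 in ePRAoe (2.68, SE 0.57, adjusted p = 0.0186). Adgrg7 (adjusted p = 0.0568) and Cbr2 (adjusted p = 0.0957) lost their calls without a library of run 1. Adgrg7 (adjusted p = 0.0683) and Cbr2 (adjusted p = 0.0978) lost their calls without a library of run 2.

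**Figure D3:**
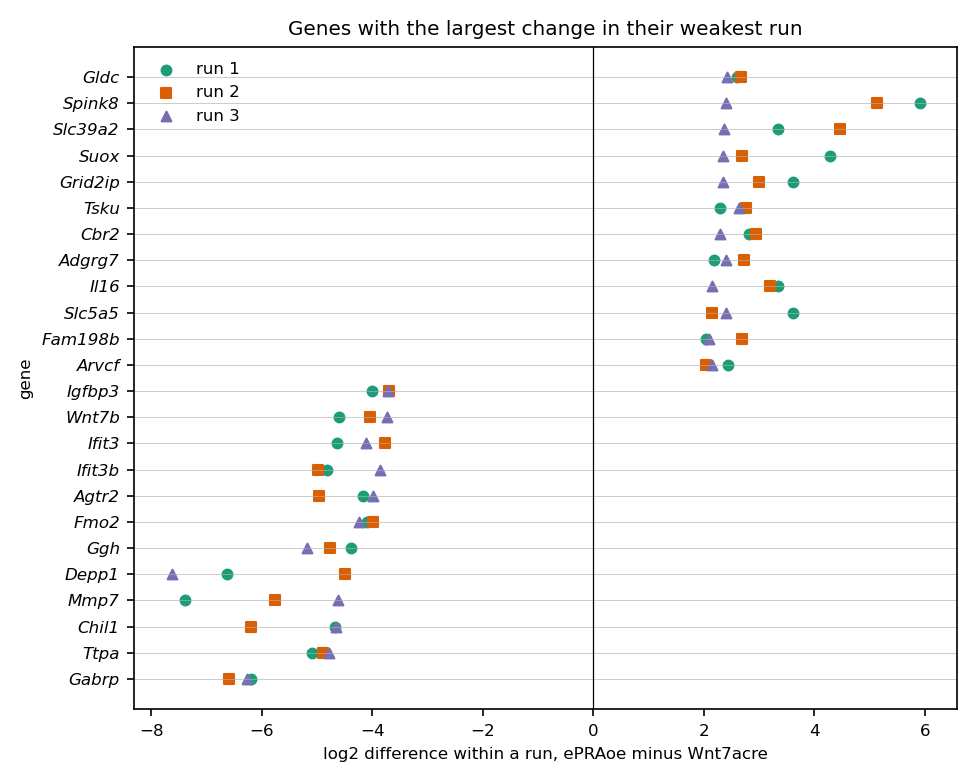
Log2 difference between the ePRAoe and the Wnt7acre library within run 1, 2 and 3 (horizontal) for the 12 genes per direction with the largest change in their weakest run. In all 24 genes the 3 runs lie on the same side of 0, with run 3 the smallest rise for Spink8 (2.40) and the largest fall for Depp1 (-7.63).

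Suox, sulfite oxidase, is shown with its promoter because it joined a large rise to a full palindromic receptor element. Its level was 4.11, 6.67 and 4.66 FPKM in the controls and 25, 109 and 48.7 in ePRAoe (3.11, SE 0.39, adjusted p = 0.00338). The element bound by the progesterone receptor, and by the glucocorticoid receptor, was searched as GNACA and TGTNC with 3 bases between them, which reads the same on both strands, in RefSeq promoters of GRCm38.p6 from 250 bases before to 50 after each start. It was present in 38 of 11661 promoters of tested genes (0.326%, 36 genes), in 8 of 923 of genes that rose (0.867%, 7 genes) and in 0 of 1104 of genes that fell. Among promoters of genes that rose at least 2-fold in every run, 5 of 164 held it (3.05%, 4 genes). The same site of Fam107a lies in overlapping promoters and is counted once for each. The single arm GNACA was in 81.3% of all promoters, 84.1% of those of genes that rose and 79.0% of those that fell. These shares were not tested, and a match describes letters and not a bound site. The windows of 4 genes that rose are printed with the element in capitals: Suox (chr10:128673937-128673979, reverse strand), Clic3, an intracellular chloride channel protein (chr2:25456812-25456854, forward), Mt1, a metallothionein that binds zinc (chr8:94178980-94179022, forward), and Fam107a, an actin-associated protein (chr14:8309870-8309912, reverse), each 5′ to 3′ on the strand of its gene.
Suox: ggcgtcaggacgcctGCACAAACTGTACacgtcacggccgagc
Clic3: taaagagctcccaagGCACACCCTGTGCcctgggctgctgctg
Mt1: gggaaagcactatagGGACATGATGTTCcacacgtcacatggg
Fam107a: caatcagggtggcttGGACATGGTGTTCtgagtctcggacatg

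Clic3, Mt1 and Fam107a were picked for this motif after their values had been seen. Clic3 rose from 4.47, 3.62 and 4.19 to 11.9, 20.4 and 8.94 FPKM (1.46, SE 0.23, adjusted p = 0.00648). Fam107a, nearly unread in the controls of runs 1 and 2, rose from 0.905, 0.044 and 0.022 to 5.04, 6.38 and 1.19 FPKM (1.86, SE 0.32, adjusted p = 0.00884). Mt1 was abundant in both groups, at 487, 301 and 311 FPKM in the controls and 834, 784 and 433 in ePRAoe (0.88, SE 0.22, adjusted p = 0.0319), and its groups overlapped. Mt1 (adjusted p = 0.132) lost the call without a library of run 1. Mt1 (adjusted p = 0.0597) lost the call without a library of run 2. Mt1 (adjusted p = 0.0552) lost the call without a library of run 3. Mt1 (adjusted p = 0.101) did not pass in the fit of the 6 libraries alone.

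By the same ranking, the leading falls went deeper than the leading rises. They were Gabrp, Ttpa, Chil1, Mmp7, Depp1, Ggh, Fmo2, Agtr2, Ifit3b, Ifit3, Wnt7b and Igfbp3, and each fell more than 8-fold in every run. Most were well expressed in the controls and close to 0 in ePRAoe.

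Gabrp (chromosome 11, 33550781 to 33578959, reverse strand), a subunit of the chloride-conducting GABA-A receptor found in epithelia, was at 85.2, 199 and 117 FPKM in the controls and 0.116, 0.603 and 1.07 in ePRAoe. This was the deepest fall of all (-6.36, SE 0.22, adjusted p = 4.59e-05), and the runs gave -6.20, -6.59 and -6.27. Mmp7 (chromosome 9, 7692090 to 7699585, forward strand), matrilysin, a secreted epithelial metalloprotease, went from 62.4, 378 and 305 to 1.57, 0.818 and 6.0 FPKM (-5.93, SE 0.53, adjusted p = 0.0016). Depp1 (chromosome 6, 116650609 to 116652794, forward strand), an autophagy-linked FOXO target, went from 197, 495 and 297 to 0, 2.02 and 21.1 FPKM (-6.25, SE 0.73, adjusted p = 0.0028). Its ePRAoe library of run 3 was listed at 0, while that of run 2 kept part of the control level. Ttpa, which carries vitamin E, and Ggh, the folate-trimming gamma-glutamyl hydrolase, lie next to each other on chromosome 4 and fell by 4.92 and 4.78. Ggh was at 258, 673 and 366 FPKM in the controls and at 6.08, 16.5 and 23.8 in ePRAoe. Ttpa was at 27.2, 83 and 53.5 FPKM in the controls and 0.023, 0.604 and 1.83 in ePRAoe. Neither gene had a control library near the ePRAoe range. Igfbp3 (chromosome 11, 7206086 to 7213923, reverse strand), a carrier of insulin-like growth factors, was among the most abundant genes of the control epithelium, at 425, 1428 and 1017 FPKM, and stood at 31.4, 62.3 and 109 in ePRAoe (-3.81, SE 0.21, adjusted p = 0.00074). Chil1, a chitinase-like lectin, fell by 5.17, Fmo2, a flavin monooxygenase, by 4.11, and Agtr2, the type 2 angiotensin receptor on the X chromosome, by 4.37. In ePRAoe these 3 genes did not exceed 1.43 FPKM.

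Gene lists for the biology of this tissue were then read against the background of 17.4% called genes and a median change of -0.04. The lists were drawn up with earlier results of these data known, so their shares are descriptions. Progesterone-induced genes, collagens, matrix glycoproteins and homeobox factors held more risen than fallen members, and estrogen-induced genes, interferon-induced genes, complement, cathepsins and serine proteases more fallen than risen ones.

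**Figure D4:**
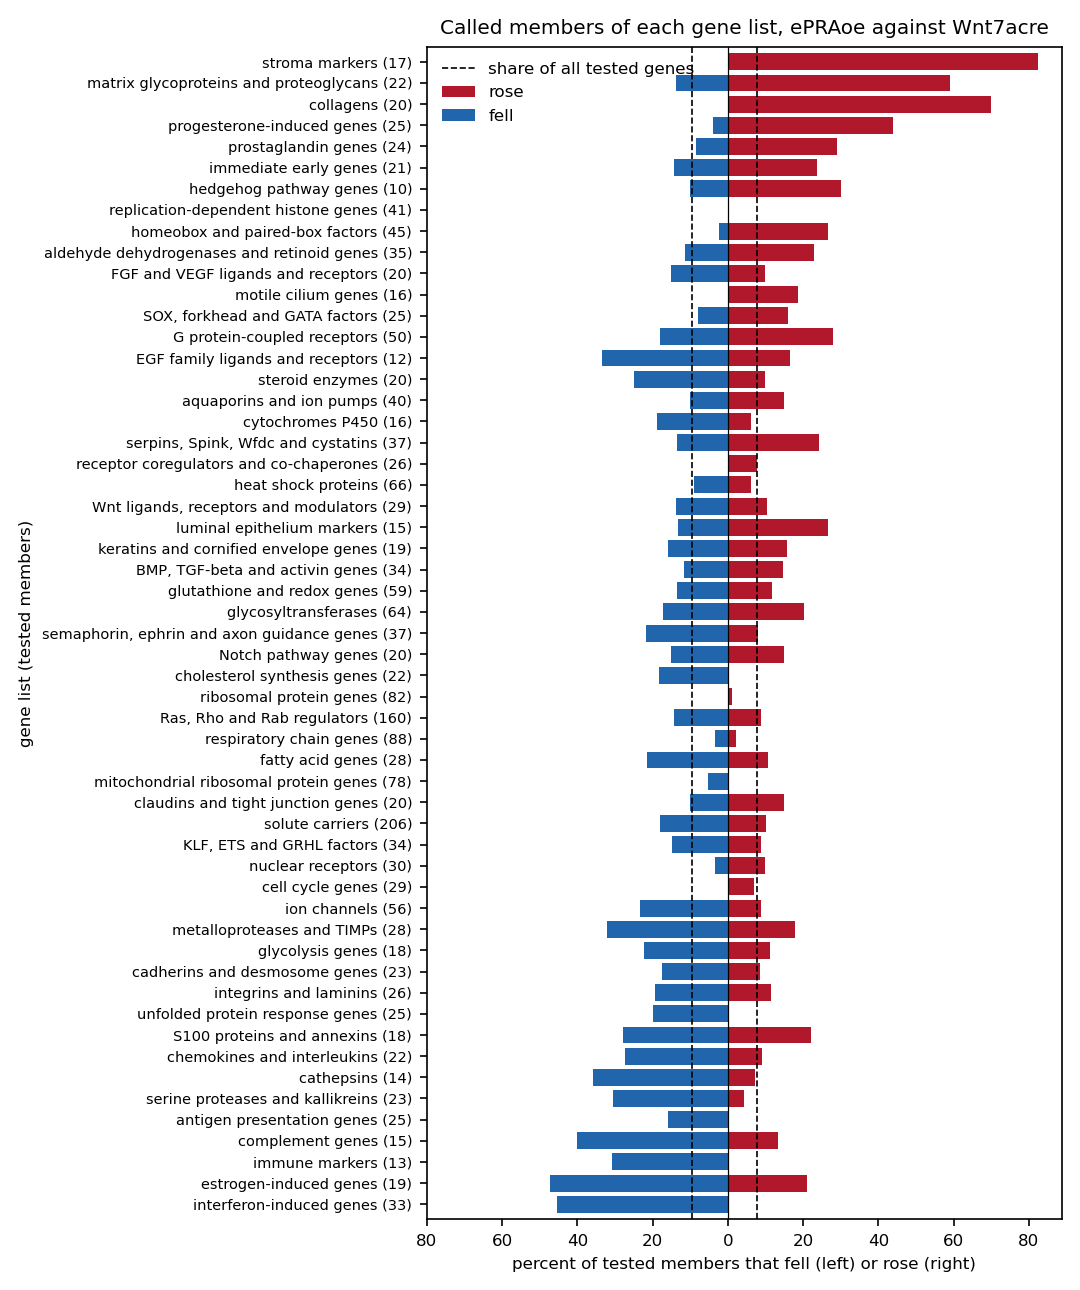
Percent of the tested members of each gene list that fell (blue, to the left) or rose (red, to the right) in ePRAoe, ordered by the median log2 fold change of the list, for lists with at least 10 tested members (number in parentheses). Dashed lines mark the shares among all tested genes, 7.74% that rose and 9.63% that fell; the stroma markers stand at the top (82.4% rose) and the interferon-induced genes at the bottom (45.5% fell).

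In the list of genes known to be induced by progesterone in the uterus, 25 were tested. Of these 11 rose (4 steady) and 1 fell (steady), with a median of 0.66, and the others did not pass the test. The list is a choice of such genes and not all of them, and Depp1, among the deepest falls, is outside it. Its counts thus hold for the chosen members only. Gata2 (chromosome 6, 88193891 to 88207032, forward strand), a transcription factor that works with the receptor in the epithelium, was at 54.9, 21.6 and 47 FPKM in the controls and 186, 115 and 90.8 in ePRAoe (1.68, SE 0.18, adjusted p = 0.00204). Hsd11b2, which inactivates glucocorticoids, rose from 8.84, 12.1 and 15.8 to 26.7, 31.4 and 42 FPKM (1.39, SE 0.19, adjusted p = 0.00413). Every ePRAoe library was above every control for both. Lrp2, megalin, a large endocytic receptor, rose within each run (1.60, 0.81 and 1.05), though its run 3 control, at 197 FPKM, was as high as the ePRAoe library of run 1. Msx1, a homeobox factor of receptivity, rose from 12.8, 8.42 and 9.92 to 27.6, 26.1 and 24.6 FPKM (1.27, SE 0.20, adjusted p = 0.00703). Sox17, a partner of Gata2 in the epithelium, rose by 1.28, Alox15, a lipoxygenase, by 1.46, Hdc, which makes histamine, by 1.00 and Areg, amphiregulin, by 3.19. Sox17 (adjusted p = 0.0591), Alox15 (adjusted p = 0.138), Hdc (adjusted p = 0.13) and Areg (adjusted p = 0.139) lost their calls without a library of run 1. Alox15 (adjusted p = 0.141), Hdc (adjusted p = 0.145) and Areg (adjusted p = 0.136) lost their calls without a library of run 2. Alox15 (adjusted p = 0.0735) and Hdc (adjusted p = 0.0899) did not pass in the fit of the 6 libraries alone.

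Members of the same list in the hedgehog path from epithelium to stroma were called in part. Ihh, the hedgehog ligand made by the epithelium under progesterone, was at 46.7, 29.7 and 24.9 FPKM in the controls and 31.9, 57.9 and 57.9 in ePRAoe, and the groups overlapped (0.53, SE 0.31, adjusted p = 0.281). Its receptor Ptch1 gave 0.40 (SE 0.20, adjusted p = 0.211) and Nr2f2, the stromal factor downstream, 0.25 (SE 0.18, adjusted p = 0.364), neither past the threshold. Gli1, a transcription factor at the end of the pathway, rose from 0.872, 0.851 and 0.997 to 2.99, 2.2 and 4.57 FPKM (1.12, SE 0.20, adjusted p = 0.0108). Foxo1, a forkhead factor of receptive epithelium, was the member that fell, from 74.5, 121 and 86.8 to 29.1, 29.3 and 50.5 FPKM (-1.37, SE 0.14, adjusted p = 0.00204). Cyp26a1, which degrades retinoic acid, was at 516, 701 and 609.5 FPKM in the controls and 18.7, 204 and 444 in ePRAoe, lower in every ePRAoe library but widely spread over them (-2.32, adjusted p = 0.0557, not past the threshold). Gli1 (adjusted p = 0.0533) lost the call without a library of run 2.

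Estrogen-induced genes went mainly the other way: of 19 tested, 9 fell (5 steady) and 4 rose (2 steady), with a median of -0.93. The members that fell were largely secreted and growth-linked epithelial genes. Besides Gabrp, Wnt7b, a Wnt ligand of the luminal epithelium, was at 44.6, 178 and 102 FPKM in the controls and 2.43, 3.27 and 9.83 in ePRAoe (-4.12, SE 0.35, adjusted p = 0.00155). Olfm1, a secreted olfactomedin, was at 130.2, 636 and 294 FPKM in the controls and 6.08, 33.8 and 53.1 in ePRAoe (-3.62, SE 0.35, adjusted p = 0.0019). Myc, the growth-promoting transcription factor, fell from 44.5, 167 and 94.1 to 20.7, 15.1 and 34.3 FPKM (-1.96, SE 0.28, adjusted p = 0.00494), with all ePRAoe libraries under all controls. Ltf, lactoferrin, the classic estrogen-induced secretory protein, fell by 3.76 with a run 3 control of 106 FPKM far above the other controls. Those that rose were Fos, an immediate early factor, by 2.79, the growth factor Igf1 by 1.64, the immediate early factor Egr1 by 1.45 and the enzyme Padi4 by 1.01. Esr1, the estrogen receptor, was at 39.4, 42.3 and 42.7 FPKM in the controls and 29.9, 27.3 and 36.8 in ePRAoe (-0.40, adjusted p = 0.0927, not past the threshold). Ltf (adjusted p = 0.0916), Egr1 (adjusted p = 0.0653) and Padi4 (adjusted p = 0.108) lost their calls without a library of run 1. Ltf (adjusted p = 0.0508) and Padi4 (adjusted p = 0.0852) lost their calls without a library of run 2. Padi4 (adjusted p = 0.0711) lost the call without a library of run 3.

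Interferon-induced genes, the antiviral program that cells switch on in answer to interferon, were lower in ePRAoe. Of 33 tested, 15 fell (4 steady) and 0 rose (45.5% called), with a median of -1.49. Ifit3 (chromosome 19, 34583531 to 34588731, forward strand), which binds viral RNA complexes, was at 35.4, 56.9 and 40.1 FPKM in the controls and at 1.1, 0.647 and 3.23 in ePRAoe (-4.18, SE 0.32, adjusted p = 0.00106). Its near copy Ifit3b gave 24.5, 56.9 and 36.8 FPKM in the controls and 0.756, 0.34 and 0.831 in ePRAoe, and reads shared between these copies cannot be assigned with certainty. Rsad2 (chromosome 12, 26442746 to 26456452, reverse strand), viperin, an antiviral enzyme, was at 19.7, 14.2 and 17 FPKM in the controls and 0.321, 0.201 and 1.95 in ePRAoe (-3.41, SE 0.43, adjusted p = 0.0034). In all 3 genes the groups were far apart, and the ePRAoe library of run 1 was the lowest. Oas3, a sensor of double-stranded RNA, fell by 3.39 and Ifit1bl1, an IFIT family member, by 4.62. Among factors that act upstream, Irf9 gave -0.27 (adjusted p = 0.296) and Irf7 0.22 (adjusted p = 0.626), neither past the threshold. Immune markers fell in these libraries too (4 of 13, 134 to 178 against 200 to 416 FPKM in sum), and their part in these falls was not tested. Oas3 (adjusted p = 0.064) lost the call without a library of run 1.

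The interferon-stimulated response element is the DNA sequence bound by IRF-containing complexes, and its core, GAAA and GAAA with 2 bases between them, was searched on both strands in the same promoters. It was present in 14 of the 26 promoters matched to 23 interferon-induced genes (53.8%), against 3.00% of all promoters, 2.38% of those of genes that rose and 4.35% of those of genes that fell. Since the list is of genes known to answer interferon, the share in the list describes the list and not the change. Windows of 5 genes that fell are printed as examples, with the core in capitals (TTTC and TTTC where it lies on the other strand). They are Ifit3 (chr19:34583358-34583397 and chr19:34583392-34583431, forward strand), Rsad2 (chr12:26456548-26456587, reverse), Oas3 (chr5:120777710-120777749, reverse), Gbp2 (chr3:142620589-142620628, forward) and Gbp3 (chr3:142559984-142560023, forward), all GRCm38.p6. A further core in the Gbp3 window, TTTCTATTTC, overlaps the one in capitals and is left partly in small letters. Other genes that fell, such as Ifitm3, carry the core nearer to the start.
Ifit3 far: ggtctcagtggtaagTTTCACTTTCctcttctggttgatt
Ifit3 near: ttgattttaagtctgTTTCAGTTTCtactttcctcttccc
Rsad2: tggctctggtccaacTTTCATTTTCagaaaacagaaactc
Oas3: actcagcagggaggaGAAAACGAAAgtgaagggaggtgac
Gbp2: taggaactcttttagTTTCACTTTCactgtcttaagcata
Gbp3: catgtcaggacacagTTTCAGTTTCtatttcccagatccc

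Gbp2 and Gbp3, interferon-induced GTPases that attack the vacuoles of pathogens, are outside the list and were picked for the motif after their values had been seen. Gbp2 was at 34.6, 20.6 and 11.4 FPKM in the controls and 2.23, 0.774 and 2.73 in ePRAoe (-2.94, SE 0.26, adjusted p = 0.00155). Gbp3 was at 24.8, 26.6 and 13.7 FPKM in the controls and 3.51, 1.1 and 3.73 in ePRAoe (-2.62, SE 0.23, adjusted p = 0.00155). The groups did not overlap for either gene.

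**Figure D5:**
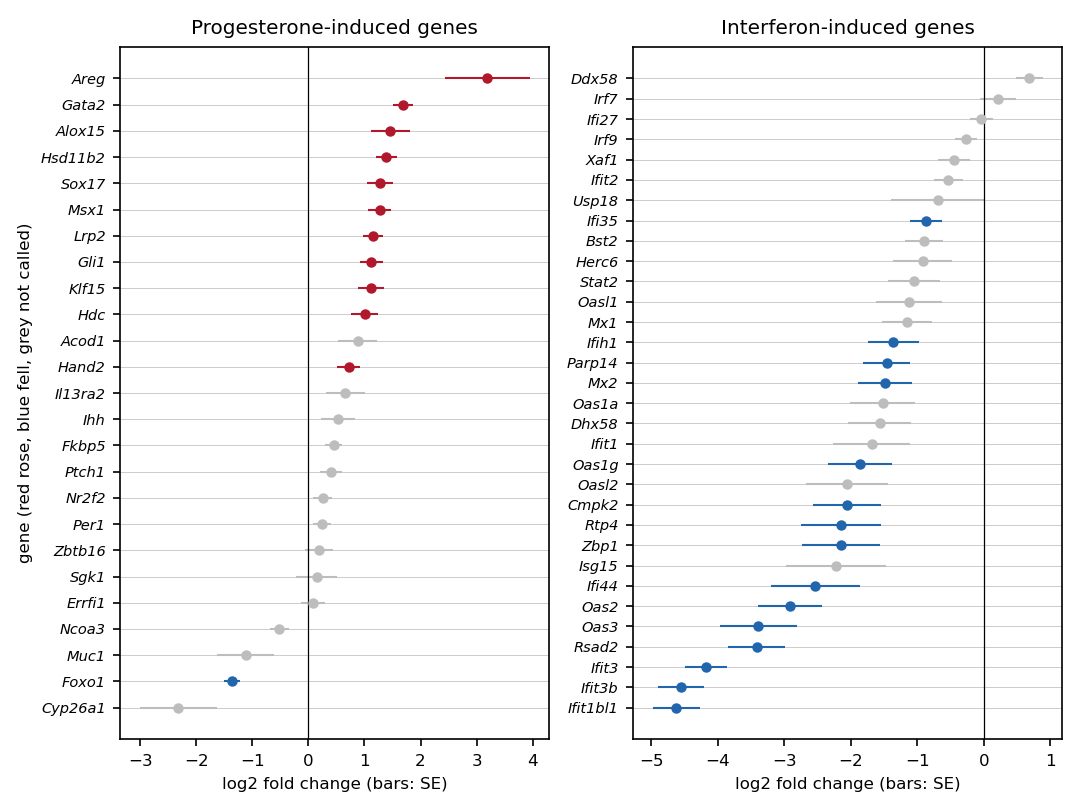
Log2 fold change of ePRAoe over Wnt7acre with its standard error (bars) for the tested members of the progesterone-induced list (left, 25 genes) and of the interferon-induced list (right, 1 member that was not called left out), red where the gene rose, blue where it fell and grey where it was not called. In the left panel 11 genes rose and Foxo1 fell, and in the right panel 15 fell and none rose.

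Among other genes of immunity most of the called members fell. Among 22 chemokines and interleukins 6 fell (4 steady) and 2 rose (1 steady). Csf1, the growth factor that epithelium supplies to macrophages, was at 13.1, 65 and 32.2 FPKM in the controls and 1.25, 0.481 and 0.946 in ePRAoe (-4.07, SE 0.41, adjusted p = 0.00194), and Il1a, interleukin-1 alpha, at 6.35, 12.1 and 14.1 FPKM in the controls and 0, 0.154 and 1.93 in ePRAoe (-2.92, SE 0.29, adjusted p = 0.00191). Ccl12, a monocyte attractant, fell by 2.14. Of 15 complement genes 6 fell (2 steady) and 2 rose (0 steady). Cd55, a brake on complement held on the membrane, went from 210.3, 274 and 263 to 92.7, 22.1 and 29.6 FPKM (-2.62, SE 0.41, adjusted p = 0.00648). It was high in every control and lower in every ePRAoe library. The members that rose were the protease subunits C1s1 (1.07) and C1ra (0.73). Of 25 antigen presentation genes 4 fell and 0 rose (16.0% called, 0 steady), a share near the background, among them the peptide transporter Tap1 (-1.18, SE 0.32, adjusted p = 0.0405) and H2-T23, a non-classical class I gene (-1.68, SE 0.28, adjusted p = 0.00748). Among immune cell markers Tyrobp (-1.11, SE 0.15, adjusted p = 0.00415) and Fcer1g (-0.97, SE 0.13, adjusted p = 0.00452), adaptors of myeloid and natural killer receptors, fell. C1ra (adjusted p = 0.0756), Tap1 (adjusted p = 0.186) and H2-T23 (adjusted p = 0.0564) lost their calls without a library of run 1. C1s1 (adjusted p = 0.0714), C1ra (adjusted p = 0.171) and Tap1 (adjusted p = 0.151) lost their calls without a library of run 2. C1ra (adjusted p = 0.0505) lost the call without a library of run 3. C1ra (adjusted p = 0.143) did not pass in the fit of the 6 libraries alone.

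Secreted proteases and their inhibitors changed in different directions. Serine proteases and kallikreins fell in 7 of 23 (4 steady) and rose in 1 (0 steady), with a median of -0.59. Tmprss2, a membrane-bound protease of epithelia, was at 183, 232 and 172 FPKM in the controls and 84, 25.6 and 43.1 in ePRAoe (-2.07, SE 0.33, adjusted p = 0.00656), and Prss35 went from 9.64, 25.8 and 7.56 to 0, 0 and 0.151 FPKM. Cathepsins, proteases of the lysosome, fell in 5 of 14 (3 steady) and rose in 1 (0 steady). Ctsl, cathepsin L, was at 86.8, 103 and 66.3 FPKM and 23.9, 14.4 and 30.0 in ePRAoe (-1.90, SE 0.13, adjusted p = 0.000971), the control and ePRAoe ranges lying well apart. Metalloproteases and TIMPs held 5 that rose (2 steady) and 9 that fell (5 steady) of 28. Beside Mmp7, Adamts9, which cuts proteoglycans, fell from 28.1, 61.4 and 46.9 to 5.09, 2.27 and 9.16 FPKM (-2.92, SE 0.31, adjusted p = 0.00204), while Mmp2, a gelatinase made by stroma, rose by 1.23 (SE 0.14, adjusted p = 0.00277). The inhibitor list, which by its name pattern also took a few unrelated Cstf genes, had 9 that rose (4 steady) and 5 that fell (3 steady) of 37. Wfdc13 rose from 15.9, 7.36 and 14.9 to 60.3, 38.2 and 26.1 FPKM (1.62, SE 0.17, adjusted p = 0.00217), Serpina1b, an antitrypsin, by 2.87, and Spink1, a trypsin inhibitor counted among gland markers, fell from 24.1, 41.2 and 14.8 to 2.7, 0.18 and 0 FPKM (-3.97, SE 0.59, adjusted p = 0.0054). Spink1 and Spink8, members of the same inhibitor family, thus lay at opposite ends.

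The cell surface changed as well. All 3 called mucins of 6 fell and were steady: Muc4, a membrane mucin that covers the lumen, went from 9.59, 16.9 and 8.37 to 4.13, 2.52 and 3.24 FPKM (-1.51, SE 0.24, adjusted p = 0.00638), Muc20 from 3.35, 7.79 and 4.9 to 0.284, 0.035 and 0.87 (-2.17, SE 0.24, adjusted p = 0.00224) and Cd164, a sialomucin, from 102, 129.9 and 86.9 to 60.4, 60.1 and 66.7 (-0.74, SE 0.13, adjusted p = 0.00929). Muc1, the mucin whose loss is a known step of receptivity, gave -1.12 with overlapping groups (SE 0.50, adjusted p = 0.171). Of 64 glycosyltransferases 13 rose (6 steady) and 11 fell (3 steady), 37.5% called with a median of -0.02. Gcnt3, which branches mucin sugars, rose from 32.6, 14.4 and 40.3 to 113, 145 and 67.5 FPKM (1.91, SE 0.17, adjusted p = 0.00155), and B4galnt1, which builds gangliosides, fell from 13, 38.3 and 23.9 to 2.2, 3.14 and 3.88 (-2.58, SE 0.28, adjusted p = 0.00224). Among 20 tight junction genes 3 rose (1 steady) and 2 fell (1 steady). Jam2, a junctional adhesion molecule, was at 224, 53.8 and 158 FPKM in the controls and 524, 671 and 418 in ePRAoe (2.08, SE 0.31, adjusted p = 0.00573), and Cldn10, a channel-forming claudin, at 145, 203 and 170.4 FPKM in the controls and 7.68, 15.9 and 87.2 in ePRAoe (-2.88, SE 0.47, adjusted p = 0.00767). The fall of Cldn10 was less in run 2 than in runs 1 and 3. Of 26 integrins and laminins 3 rose (1 steady) and 5 fell (4 steady), with Lama3, a basement membrane laminin of epithelia, at -1.94 (SE 0.19, adjusted p = 0.00191) and Itga9, an integrin, at 2.26 (SE 0.34, adjusted p = 0.00584). Cldn10 (adjusted p = 0.0581) lost the call without a library of run 1. Cd164 (adjusted p = 0.0585) did not pass in the fit of the 6 libraries alone.

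Among extracellular matrix genes most of the called members rose. Of 20 genes with a collagen symbol, which include the unrelated Col4a3bp, 14 rose (5 steady) and 0 fell, with a median of 0.96, and of 22 matrix glycoproteins and proteoglycans 13 rose (4 steady) and 3 fell (1 steady), with a median of 1.18. Col6a1, a chain of microfibrillar collagen, was at 7.44, 11.2 and 8.64 FPKM in the controls and 27.2, 24.8 and 36.8 in ePRAoe (1.59, SE 0.13, adjusted p = 0.00138). Col3a1, a fibrillar collagen, was at 15.8, 13.2 and 18 FPKM in the controls and 37, 50.1 and 59.9 in ePRAoe (1.57, SE 0.20, adjusted p = 0.00338), and Fn1, fibronectin, at 11.3, 11.2 and 9.97 FPKM in the controls and 39, 26.3 and 38.4 in ePRAoe (1.57, SE 0.17, adjusted p = 0.00224). For these 3 genes every ePRAoe library exceeded every control. Dpt, dermatopontin, rose by 2.28 (SE 0.31, adjusted p = 0.00426). Spp1, osteopontin, a secreted ligand of integrins made by epithelium, went the other way, from 31.8, 137 and 83.7 to 5.41, 5.04 and 7.25 FPKM (-3.41, SE 0.45, adjusted p = 0.00396). Stroma markers share members with these lists (Col1a1, Col3a1, Col6a1 and Fbn1 among them) and rose in 14 of 17 (7 steady, median 1.37), also where the marker is no matrix gene, such as the receptor Pdgfra (1.38) and the factor Twist2 (1.24). How much of the matrix rise came from stromal cells in the captures was not tested. Twist2 (adjusted p = 0.0541) lost the call without a library of run 1. Twist2 (adjusted p = 0.0832) lost the call without a library of run 2. Twist2 (adjusted p = 0.0678) did not pass in the fit of the 6 libraries alone.

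Transcription factors with a role in patterning rose more than they fell: of 45 homeobox and paired-box genes 12 rose (4 steady) and 1 fell (0 steady), with a median of 0.17. Hoxa11, a regulator of uterine stroma and listed as a stroma marker, rose from 3.95, 5.15 and 4.88 to 16, 9.67 and 19.1 FPKM (1.45, SE 0.20, adjusted p = 0.00481). Its antisense gene Hoxa11os rose by 1.32, and since the strand setting is not given, reads of the overlapping pair cannot be told apart with certainty. Six5 rose from 5.36, 4.71 and 5.94 to 9.996, 19 and 14.2 FPKM (1.24, SE 0.18, adjusted p = 0.00501). None of the Hoxb genes of the list was called. Of 30 nuclear receptors 3 rose (2 steady) and 1 fell (steady), a share of 13.3% that is under the background. Besides Pgr, those that rose were Esrra, a regulator of mitochondrial genes, from 3.59, 2.85 and 2.54 to 8.85, 11.1 and 8.07 FPKM (1.37, SE 0.17, adjusted p = 0.00346), and Nr4a2, an immediate early receptor (2.26, SE 0.61, adjusted p = 0.0416). Of 26 receptor coregulators and co-chaperones 2 rose, both steady, and 0 fell (7.69%): Nrip1, a corepressor of steroid receptors, by 0.90 (SE 0.15, adjusted p = 0.00767) and Ncoa4 by 1.04 (SE 0.18, adjusted p = 0.00982). Among 25 SOX, forkhead and GATA genes Foxp1, a forkhead repressor, fell by 1.12 (SE 0.15, adjusted p = 0.00404). Nr4a2 (adjusted p = 0.211) lost the call without a library of run 1. Nr4a2 (adjusted p = 0.0871) lost the call without a library of run 2. Nr4a2 (adjusted p = 0.0619) lost the call without a library of run 3.

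In the signalling lists the calls went in both directions. Of 29 Wnt ligands, receptors and modulators 3 rose (1 steady) and 4 fell (1 steady). Sfrp2, a secreted Wnt inhibitor of stroma, rose by 1.25 and Lgr5, a receptor that amplifies Wnt signals, was at 75.6, 61.5 and 28.5 FPKM in the controls and 19.5, 1.06 and 9.75 in ePRAoe (-2.76, SE 0.49, adjusted p = 0.00984). Of 20 FGF and VEGF genes 2 rose (0 steady) and 3 fell (2 steady), the falls including Fgf9, a growth factor from epithelium to stroma, from 14.6, 41.9 and 28.3 to 0.79, 0.11 and 1.8 FPKM (-3.93, SE 0.30, adjusted p = 0.00106), and Pgf, placental growth factor, from 77.4, 191 and 96.5 to 21.6, 36.4 and 35.7 (-1.85, SE 0.19, adjusted p = 0.00194). Fgf9 fell to under 2 FPKM in all ePRAoe libraries. Among 12 EGF family ligands and receptors 2 rose (0 steady) and 4 fell (1 steady), with Erbb3, a co-receptor, at -0.93 (SE 0.13, adjusted p = 0.00448). Of 34 BMP, TGF-beta and activin genes 5 rose (3 steady) and 4 fell (0 steady). Gdf7, a BMP ligand, rose from 6.78, 10.1 and 8.55 to 24.2, 24.1 and 24 FPKM (1.42, SE 0.16, adjusted p = 0.00273), the ePRAoe libraries being almost equal. Of 20 Notch pathway genes 3 rose (1 steady) and 3 fell (0 steady), with Rfng, a sugar transferase that tunes Notch receptors, at 1.84 (SE 0.13, adjusted p = 0.000971). Lgr5 (adjusted p = 0.0647) lost the call without a library of run 1. Lgr5 (adjusted p = 0.0513) lost the call without a library of run 2.

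Prostaglandin genes, whose products act in attachment, rose in 7 of 24 (3 steady) and fell in 2 (1 steady), with a median of 0.48. Pla2g4a, the phospholipase that frees arachidonic acid, rose from 76.5, 33.1 and 58.9 to 129, 137 and 92.4 FPKM (1.13, SE 0.16, adjusted p = 0.00491). Pla2g10, a secreted phospholipase, rose from 38.8, 5.23 and 25.9 to 111, 89.4 and 80.4 FPKM (2.32, SE 0.39, adjusted p = 0.00806), with the same limit of strand for its antisense partner Pla2g10os (1.86). Ptgdr, a receptor of prostaglandin D2, fell from 1.93, 17.6 and 12.1 to 0, 1.5 and 0.906 FPKM (-2.41, SE 0.33, adjusted p = 0.00434). Lpar3, the lysophosphatidic acid receptor of receptive epithelium, rose by 1.00 (SE 0.19, adjusted p = 0.0137). Of 50 G protein-coupled receptors and partners 14 rose (1 steady) and 9 fell (2 steady). Drd4, a dopamine receptor, was the steady member that rose, from 7.57, 4.04 and 9.56 to 27.6, 189 and 111 FPKM (3.46, SE 0.47, adjusted p = 0.00415), and Adgrg1, an adhesion receptor, fell from 27.7, 66.3 and 41.2 to 4.9, 19.4 and 16.4 (-1.76, SE 0.22, adjusted p = 0.0035). Lpar3 (adjusted p = 0.0589) lost the call without a library of run 2.

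Genes of transport across the epithelium changed in both directions, with more falls than rises. Of 206 solute carriers 21 rose (6 steady) and 37 fell (15 steady), 28.2% called with a median of -0.10, and of 56 ion channels 5 rose (1 steady) and 13 fell (6 steady). Slc46a2 went from 28.5, 87.6 and 56.9 to 3.62, 1.44 and 5.61 FPKM (-3.66, SE 0.32, adjusted p = 0.00155), and Slc16a1, a lactate transporter, from 6.35, 17.7 and 11.1 to 0.566, 1.25 and 2.64 (-2.34, SE 0.19, adjusted p = 0.00138). Trpm6, a magnesium channel, fell from 36.8, 91.7 and 57.8 to 6.79, 1.86 and 5.4 FPKM (-3.50, SE 0.38, adjusted p = 0.00224). Scnn1g, the gamma chain of the sodium channel of epithelia, was at 3.4, 11.1 and 4.44 FPKM in the controls and was listed at 0 in every ePRAoe library, a fall past the threshold (adjusted p = 0.00204). Among 40 aquaporins and ion pumps 6 rose (1 steady) and 4 fell (3 steady). Atp6v0d2, a subunit of the proton pump, was at 367, 659 and 563 FPKM in the controls and 4.07, 31.8 and 99.5 in ePRAoe (-4.33, SE 0.55, adjusted p = 0.00353), with the ePRAoe library of run 3 the lowest. Car5b, a mitochondrial carbonic anhydrase of the same list, rose by 2.13 (SE 0.23, adjusted p = 0.00223).

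Enzymes of redox, retinoid and steroid metabolism also went both ways. Of 59 glutathione and redox genes 7 rose (3 steady) and 8 fell (4 steady). Gstm2, a glutathione transferase, rose from 371, 139 and 334 to 870.0, 1300.1 and 578 FPKM (1.75, SE 0.22, adjusted p = 0.00369), and its neighbour Gstm5 fell from 155, 364 and 240.2 to 27.7, 40.6 and 53 (-2.58, SE 0.22, adjusted p = 0.00155). The Gstm genes are close copies, and how the authors' counting split shared reads between them is uncertain. Mgst1, a membrane-bound transferase, fell by 1.87 (SE 0.17, adjusted p = 0.0016) and Gpx3, a secreted peroxidase, was at 35.5, 491 and 391 FPKM in the controls and 4.93, 4.84 and 3.34 in ePRAoe (-5.17, SE 0.73, adjusted p = 0.00483). In Gpx3 the control of run 3 was far under the other controls, and all ePRAoe libraries were low. Of 35 aldehyde dehydrogenases and retinoid genes 8 rose (4 steady) and 4 fell (3 steady): Stra6, which imports retinol, rose from 11.9, 7.03 and 8.5 to 48.2, 32.8 and 24.1 FPKM (1.80, SE 0.18, adjusted p = 0.00191) and Aldh1a2, which makes retinoic acid, by 1.55 (SE 0.21, adjusted p = 0.00416). Of 20 steroid enzymes 2 rose (1 steady) and 5 fell (2 steady), with Sult1d1, a sulfotransferase, falling from 362, 337 and 354 to 78, 128 and 152 FPKM (-1.60, SE 0.21, adjusted p = 0.00381) and Hsd17b2, which inactivates estradiol, by 2.82 (SE 0.41, adjusted p = 0.005). In the unfolded protein response list 5 of 25 fell (3 steady) and 0 rose, a called share near the background of 17.4%. Of these falls 2 also passed in the fit of the 6 libraries alone. Xbp1, the main transcription factor of this response, led the falls. It was at 156, 295 and 192 FPKM in the controls and 32.7, 34.8 and 45.4 in ePRAoe (-2.44, SE 0.14, adjusted p = 0.00074).

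The shares called among the machinery that most cells need stood under the background of 17.4%. Of 82 ribosomal protein genes 1 rose (0 steady) and 0 fell (1.22%), of 88 respiratory chain genes 2 rose (1 steady) and 3 fell (0 steady, 5.68% called), of 78 mitochondrial ribosomal protein genes 0 rose and 4 fell (1 steady, 5.13% called), and none of 41 replication-dependent histone genes was called. Rpl32, the most abundant ribosomal protein gene, was at 786, 816 and 701 FPKM in the controls and 642, 868 and 673 in ePRAoe (-0.09, SE 0.22, adjusted p = 0.83). Cell cycle genes were called in 2 of 29 (6.90%, 1 steady): Tyms, thymidylate synthase, rose by 1.21 (SE 0.17, adjusted p = 0.00488) and Top2a, which untangles DNA in dividing cells, by 1.38 (SE 0.37, adjusted p = 0.0398). The median over this list was -0.15, and Mki67, the marker of dividing cells, gave -0.19 (adjusted p = 0.657). Top2a (adjusted p = 0.134) lost the call without a library of run 1. Top2a (adjusted p = 0.184) lost the call without a library of run 2.

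The most abundant called genes included calcium-binding proteins, glutathione transferases and a metallothionein. Fxyd4, a regulator of the sodium pump, was at 583, 154 and 598 FPKM in the controls and 1137, 1634 and 824 in ePRAoe (1.61, SE 0.29, adjusted p = 0.0106), Gstm1 rose by 1.19, Cd24a, a surface glycoprotein, by 1.00 and Mt2, a metallothionein, by 0.74. S100g (chromosome X, 162961992 to 162964599, reverse strand), a calcium-binding protein of uterine epithelium, was at 2068, 2854 and 2459 FPKM in the controls and 979.6, 763 and 839 in ePRAoe (-1.51, SE 0.26, adjusted p = 0.00863). Ifitm3, an interferon-induced membrane protein that blocks virus entry, was at 1508, 1597 and 1674 FPKM in the controls and 842, 452 and 617 in ePRAoe (-1.37, SE 0.29, adjusted p = 0.0185). For both, no ePRAoe library reached any control. Prap1, a secreted proline-rich protein, was at 584, 1961 and 2032 FPKM in the controls and 8.93, 69.1 and 436 in ePRAoe (-4.30, SE 0.64, adjusted p = 0.00542), and S100a11 fell by 0.90. Gstm1 (adjusted p = 0.0814), Cd24a (adjusted p = 0.181), Mt2 (adjusted p = 0.101), Ifitm3 (adjusted p = 0.0955) and S100a11 (adjusted p = 0.0986) lost their calls without a library of run 1. Fxyd4 (adjusted p = 0.0517), Gstm1 (adjusted p = 0.118), Cd24a (adjusted p = 0.169), Mt2 (adjusted p = 0.143), S100g (adjusted p = 0.0545), Ifitm3 (adjusted p = 0.0839) and S100a11 (adjusted p = 0.139) lost their calls without a library of run 2. Mt2 (adjusted p = 0.059) lost the call without a library of run 3. Gstm1 (adjusted p = 0.0792), Cd24a (adjusted p = 0.0942), Mt2 (adjusted p = 0.132), Ifitm3 (adjusted p = 0.0503) and S100a11 (adjusted p = 0.121) did not pass in the fit of the 6 libraries alone.

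Some calls varied widely between runs, with run 3 usually the smallest. Nnat, an imprinted gene of a small membrane protein, was at 2.28, 1.88 and 1.99 FPKM in the controls and 9.45, 237 and 159 in ePRAoe, so that its rise of 4.60 (SE 0.86) came from within-run differences of 6.31, 5.80 and 1.67. Areg, an EGF receptor ligand induced by progesterone, gave 5.10, 3.83 and 0.66 and Il18r1, an interleukin-18 receptor chain, 4.47, 2.82 and -0.04. Il18r1 was level in run 3 (7.04 and 6.82 FPKM) and far higher in the ePRAoe libraries of runs 1 and 2. Among genes that fell, Cyfip2, a regulator of actin, gave -5.29, -5.31 and -0.93 and Basp1, a membrane-bound growth-associated protein, -4.36, -3.90 and -0.50. These genes were picked for their wide range over runs, so they add nothing to what the medians over all calls show of run 3. Nnat (adjusted p = 0.0778), Areg (adjusted p = 0.139), Il18r1 (adjusted p = 0.211), Cyfip2 (adjusted p = 0.136) and Basp1 (adjusted p = 0.164) lost their calls without a library of run 1. Nnat (adjusted p = 0.0778), Areg (adjusted p = 0.136), Il18r1 (adjusted p = 0.191), Cyfip2 (adjusted p = 0.134) and Basp1 (adjusted p = 0.156) lost their calls without a library of run 2. Il18r1 (adjusted p = 0.0957) did not pass in the fit of the 6 libraries alone.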

How the data were processed

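RNA of laser-captured uterine luminal epithelium had been sequenced from 9 libraries of 3 genotypes, and the 3 Wnt7acre and 3 ePRAoe libraries were compared. The authors deposited 1 table of FPKM for 15158 gene symbols, per the file headers; the submitters' processing notes name the build mm10, the aligner STAR 2.5.2b, the counter featureCounts 1.5.0-p1 from Subread, limma 3.42.2 and edgeR 3.28.0. Annotation, strand setting, gene lengths and depths were not given in the sources used here, so low values carry an unknown counting error and no interval could be computed.

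From these values log2(FPKM + 1) was taken, which understates the change of low genes. Tests covered the 11637 genes that reached 1 FPKM in 3 or more of the 6 libraries and left out 3521. Under R 4.3.3, limma 3.58.1 fitted genotype and sequencing run over all 9 libraries, with variances moderated along the expression trend (degrees of freedom: 4 residual, 3.66 prior), two-sided, with Benjamini-Hochberg adjustment over all tested genes and a threshold of 0.05. The run, taken from the labels, pairs the groups, since each has 1 library in every run. The procedure was tested on simulated data with normal errors and effects of the same size in every run, unlike the differences seen here. Alternatives varied the libraries, the run term, the pseudocount, the filter, the scaling and the variance trend, and left out each library in turn.

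The members and gene lists were chosen with earlier results of these data known. Genes were named by a rule: Pgr and Wnt7a, the 12 called genes per direction with the largest change in their weakest run (same sign in 3 runs, at least 5 FPKM in the higher group), up to 4 called members of each list by moderated t, the 5 most abundant called genes and the 3 with the widest range over runs per direction. Members of the progesterone-induced, estrogen-induced and interferon-induced lists, and a few others, were named beyond it to show what did not pass or to complete a count. A few genes that the rule picks are not reported here. Positions came from GENCODE M21, where 14970 symbols (98.8%) were found, and promoters from RefSeq, GRCm38.p6, where 9163 tested genes had 11661 promoters.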

Additional observations from a re-analysis of the deposited data

How the results depend on the processing

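The depth of the libraries is unknown, and 3 libraries a group limit the precision. The 2022 calls changed in number with the libraries used and with the pairing. The 6 libraries alone gave 1116 calls (444 rose, 672 fell). With the replicate block set by the labels' number in place of the run, there were 1164 calls (491 rose, 673 fell); only number 1 puts libraries of the same run together. Leaving out 1 library gave 814 to 2764 calls, 350 to 1137 that rose and 416 to 1630 that fell, the lowest without ePRAoe replicate 2 (all calls), ePRAoe replicate 3 (rises) and Wnt7acre replicate 3 (falls), and the highest without replicate 1 of either group. In each of these fits fewer or other libraries bear on the spread. No run term gave 1519 calls, a pseudocount of 0.1 gave 2053, no filter 1840, a mean of at least 5 FPKM 1514, median-of-ratios factors 2102, quantile normalization 2058, TPM 1887 and no variance trend 2016, all within 1.5 times. Falls outnumbered rises except under quantile normalization (1041 rose, 1017 fell) and TPM (952 rose, 935 fell). Every called gene kept its direction under each alternative that tested it, and the rise of Pgr kept its call in all of them. The kept direction says little, since much of it was fixed by the design. The log2 fold change is the same by construction with 6 libraries, without a run term, with the replicate block and without the variance trend. Nearly all calls also had the same sign in all 3 runs, so leaving out 1 library could hardly turn them. Of 234 called genes that the naming rule gave besides Pgr, 194 kept the call with 6 libraries, 206 without a run term, 184 with the replicate block and 159 to 222 with 1 library left out.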

Other observations

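Some called genes lay side by side. Taken after the values had been seen, as stretches of at least 4 neighbouring tested genes called in the same direction, there were 16, with positions from GENCODE M21 (mm10). The longest lay on chromosome 16 from 13537960 to 14192928, where 9 genes rose: Parn, Bfar, Pla2g10, Pla2g10os, Rrn3, Ntan1, Pdxdc1, Marf1 and Nde1. Their log2 fold changes ran from 0.48 for Rrn3 to 2.32 for Pla2g10, and Parn, a nuclease that trims poly(A) tails, had control values of 35.1, 20.4 and 30.1 FPKM (replicates 1 to 3) against 66.0, 66.5 and 46.8 FPKM in ePRAoe. On chromosome 11, from 120721470 to 120824547, 7 genes rose: Rac3, Dcxr, Cbr2, Rfng, Gps1, Dus1l and Fasn. On chromosome 2, from 24153161 to 24351494, the interleukin-1 family genes Il1f8, Il1f9, Il1f6 and Il1rn fell, with Il1f9 listed at 0 in all 3 ePRAoe libraries, and from 74679557 to 74707933 Hoxd11, Hoxd10, Hoxd9 and Hoxd8 rose. On chromosome 3, from 107663118 to 107898686, 4 genes fell (Ahcyl1, Csf1, 4933431E20Rik and Gstm5), and just beyond them, from 107926334 to 108017973, Gstm7, Gstm6, Gstm2 and Gstm1 rose. When any 1 library was left out, 5 of the 9 genes on chromosome 16, 3 of the 7 on chromosome 11, 2 of the 4 interleukin-1 family genes, 0 of the 4 Hoxd genes, 3 of the 4 that fell on chromosome 3 and 2 of the 4 Gstm genes beyond them passed every time.

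By chromosome, the share of tested genes called was 11.8% (chromosome 17) to 22.3% (chromosome 6). By quartile of the mean level it was 15.5%, 15.9%, 17.8% and 20.3% from the lowest to the highest.

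The AP-1 element TGANTCA, which reads the same on both strands, was in 5.05% of all promoters, 5.53% of those of genes that rose and 7.70% of those of genes that fell, in 14 of 164 promoters of genes that rose at least 2-fold in every run (8.54%) and in 34 of 286 of genes that fell at least 2-fold in every run (11.9%). These shares were not tested. The full estrogen receptor element, GGTCA and TGACC with 3 bases between them, was in 0 of the 11661 promoters, a statement about these letters and windows only.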
